A study of Mus musculus with 12 samples.

Results

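The transcripts of the water channel family, the aquaporins, were examined in the proximal small intestine of mice whose epithelium was targeted for loss of the tyrosine phosphatase Shp2. The members were found by exact row name, which the deposited array table gives in upper case (AQP1, AQP3, AQP4, AQP5, AQP7, AQP8, AQP9 and AQP11), and all 8 had a row among its 18090 gene symbols. The family was chosen on mutant and control intensities of these same arrays, so the differences between the groups, and any count of members past a threshold, are given for it as a description, with no p-value. The table held 4 further aquaporin rows (Aqp2, Aqp6, Aqp12 and Mip), which are described beside the 8.

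The 6 mutants were villinCre;Shp2fl mice, which carry a floxed allele of the Shp2 gene, Ptpn11, and a Cre recombinase whose villin promoter is active in gut epithelium. The 6 controls are called only control in the labels, and no further genotype is given there. All 12 mice had the age label P6 and the strain label C57/BL6;129Ola mixed. RNA came from a whole piece of tissue, so that stroma, muscle, vessels and blood, in which villin-driven Cre is not expected to act, were read together with the epithelium.

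Aquaporins are membrane proteins that assemble as tetramers, each subunit with its own pore. The classical members (among them Aqp1, Aqp4, Aqp5 and Aqp8) pass mainly water, and Aqp8 also passes hydrogen peroxide and ammonia. The aquaglyceroporins Aqp3, Aqp7 and Aqp9 pass glycerol as well, and Aqp11 belongs to a more distant branch that sits in the endoplasmic reticulum. In the gut, water follows the salts and sugars that the epithelium absorbs or secretes, and channels of this family are found in the epithelium, in its vessels and in the glands that open into it.

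Promoter sequences are shown for the 3 aquaporins whose values did not overlap between the groups (Aqp8, Aqp7 and Aqp1) and for Aqp3, which lies next to Aqp7 in the gene order of assembly GRCm38.p6, with no protein-coding gene between them. Each line gives the 250 bases before the annotated start of transcription, written 5′ to 3′ on the strand of the gene, from RefSeq on GRCm38.p6. They are chr7:123462044-123462293 (plus strand) for Aqp8, chr4:41048137-41048386 (minus strand) for Aqp7, chr6:55336049-55336298 (plus strand) for Aqp1 and chr4:41098184-41098433 (minus strand) for Aqp3. Capitals mark matches, on either strand, to any of 6 short motifs: TATAAA of the core promoter, TTTATG of CDX factors, AGATAA of the zinc finger factors Gata4 and Gata6, CAAAGT of nuclear receptor HNF4, TTCNNNGAA of STAT factors and TGANTCA of AP-1.
Aqp8: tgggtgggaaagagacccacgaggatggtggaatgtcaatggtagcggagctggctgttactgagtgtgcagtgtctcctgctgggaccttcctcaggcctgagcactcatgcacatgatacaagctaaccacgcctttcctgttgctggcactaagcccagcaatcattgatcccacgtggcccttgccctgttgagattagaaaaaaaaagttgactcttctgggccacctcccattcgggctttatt
Aqp7: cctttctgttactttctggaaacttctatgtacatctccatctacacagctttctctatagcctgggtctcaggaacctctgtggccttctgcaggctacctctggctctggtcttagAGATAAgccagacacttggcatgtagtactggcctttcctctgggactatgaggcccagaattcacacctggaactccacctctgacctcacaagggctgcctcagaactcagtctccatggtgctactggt
Aqp1: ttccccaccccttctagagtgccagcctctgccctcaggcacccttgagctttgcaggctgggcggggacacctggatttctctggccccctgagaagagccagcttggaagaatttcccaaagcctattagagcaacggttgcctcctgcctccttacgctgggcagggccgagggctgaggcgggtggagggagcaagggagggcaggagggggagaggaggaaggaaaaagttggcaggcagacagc
Aqp3: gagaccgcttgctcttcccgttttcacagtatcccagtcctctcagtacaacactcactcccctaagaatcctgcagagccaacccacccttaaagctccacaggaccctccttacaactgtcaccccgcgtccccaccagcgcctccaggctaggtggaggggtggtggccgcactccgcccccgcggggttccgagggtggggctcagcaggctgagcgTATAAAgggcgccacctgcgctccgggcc
The Aqp7 window held 1 match, to AGATAA at 132 bases before the start, and 9.99% of 32851 such windows of all genes held that motif. The Aqp3 window held TATAAA at 29 bases before the start, as 12.4% of all windows held it somewhere. The Aqp8 and Aqp1 windows held none of the 6, which says only that these letters are not in these windows. The other motifs occurred in 10.8% (TTTATG), 12.6% (CAAAGT), 7.02% (TTCNNNGAA) and 6.75% (TGANTCA) of all windows. Aqp7 had a second annotated start, whose window is not shown. The windows differed in base composition, with a G and C share of 52.4% for Aqp8, 50.8% for Aqp7, 62.0% for Aqp1 and 64.0% for Aqp3, against a median of 52.4% over all windows.

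Levels below are deposited array intensities on a linear scale in arbitrary units, after background subtraction, so that values can lie below 0. Different rows are read by different probes, so levels of different aquaporins are not set against each other. The size of the most negative value in the table, 27.8, is used as a noise limit. Log2 differences (mutant minus control) and their SE come from a limma fit across all 18090 rows on a scale with an offset of 50, which shrinks differences of dim rows. Past the threshold means a Benjamini-Hochberg adjusted p under 0.05 in that fit. Whole tissue was read, so fewer cells of a type and less RNA per cell cannot be told apart.

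The correlation of 2 arrays was 0.983 to 0.994 inside a group and 0.973 to 0.987 across groups. The targeted gene Ptpn11 ranged from 1388 to 1646 in mutants and from 1129 to 1481 in controls, and so was not lower in mutants (log2 difference 0.21, SE 0.07, limma adjusted p = 0.0763). Where its probe lies on the transcript is unknown here, which leaves this row no check of the labels. Of the enterocyte markers with a row, Vil1, Cdh17, Anpep, Apoa4 and Cdx2 were above the noise limit in all mice, and Fabp2 was at or under it in all mice; of these, Anpep rose (log2 difference 0.53, SE 0.15, limma adjusted p = 0.0398). Control 4 and mutant 1 stood apart by pancreatic transcripts. The summed intensity of 11 acinar markers was 42128 in mutant 1 and 3957 to 8729 in the other mutants, against 77567 in control 4 and 2649 to 10256 in the other controls. Apart from these 2 mice, the acinar marker Cela2a was above the noise limit only in control 5 (1366) and mutant 2 (382.1).

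Among the 8 aquaporins, 6 were above the noise limit in all 12 mice (Aqp1, Aqp3, Aqp4, Aqp7, Aqp8 and Aqp11), and Aqp5 and Aqp9 had means under it in both groups. In the mutants Aqp8 and Aqp7 were lower, Aqp1 was higher, and Aqp3, Aqp4 and Aqp11 overlapped between the groups. Past the threshold were 3 of the 8, 1 higher and 2 lower, where 9.19% of all rows passed it (4.71% higher and 4.48% lower). The values of the same 3 did not overlap between the groups, as was true of 4.69% of all rows. Because the family was picked with this contrast known, nothing is read from these counts. The median log2 difference was -0.011 over the 8 aquaporins and -0.0068 over all rows.

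**Figure D1:**
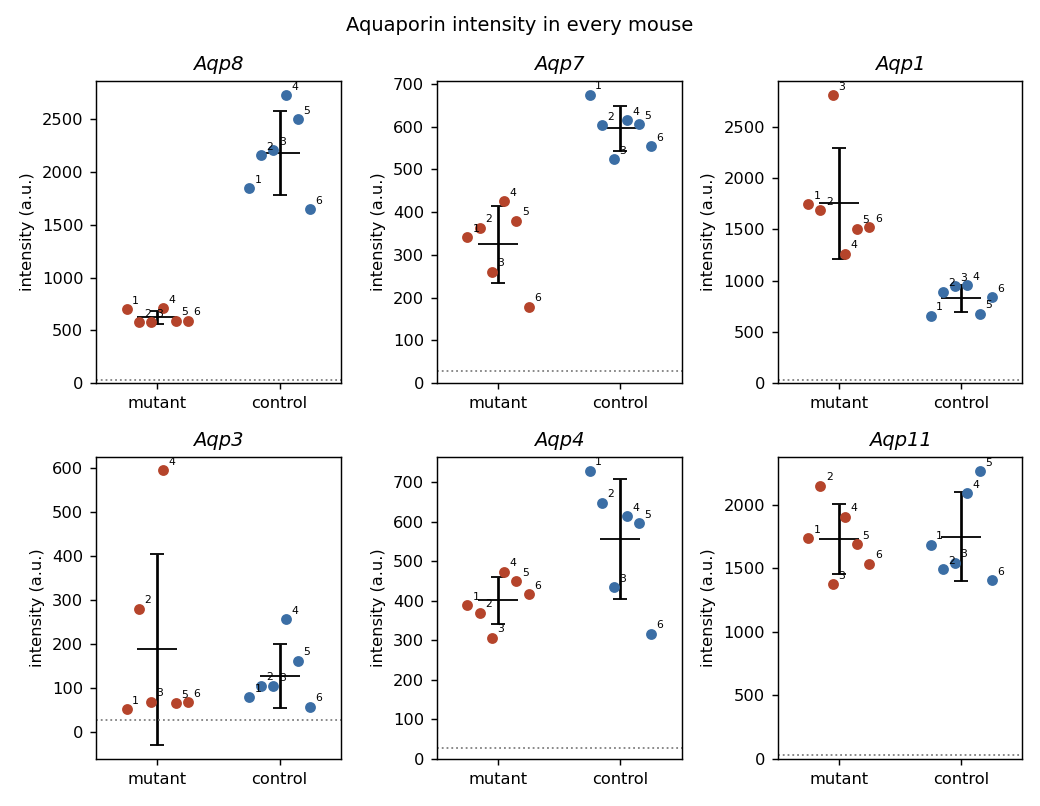
Deposited intensity (arbitrary units, linear axis) of the 6 aquaporins above the noise limit, with a point for each mouse numbered by its replicate, mutants left and controls right. Black bars give mean and SD (n = 6 each), and the dotted line is the noise limit of 27.8. Aqp8, Aqp7 and Aqp1 show no overlap between the groups.

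Aqp8, a water channel that in mice is known from colon epithelium, liver, testis and pancreatic acinar cells, had the largest difference of the family. Its lowest, median and highest intensities were 575.8, 592.0 and 710.0 in mutants, against 1650, 2184 and 2727 in controls. All 6 mutants lay in a narrow band, and the highest of them was far below the lowest control. The means were 624.8 ± 63.1 in mutants and 2183 ± 399 in controls (SD, n = 6 each), so that the control mean was 3.49 times the mutant mean. The log2 difference was -1.68 (SE 0.11) and lay between -1.75 and -1.61 when any 1 mouse was left out. The mice also differed less among themselves in the mutant group, with a coefficient of variation of 10.1% in mutants and 18.3% in controls. The 2 highest mutants were mutant 4 and mutant 1, and the highest control was control 4. Without the 2 mice richest in pancreatic transcripts, control 4 and mutant 1, the log2 difference was -1.64. Control 5 and mutant 2, which held less of such transcripts, stayed in that fit. Of 3 colonocyte markers with a row, Car4 and Slc26a3 were at or under the noise limit in all 12 mice, and Muc4, a membrane mucin, was dim and rose (28.8 ± 14.1 in mutants and 6.03 ± 6.14 in controls, SD, n = 6 each, limma adjusted p = 0.0229), with 4 mutants and no control above the limit.

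Aqp7, the glycerol channel best known from fat cells and the kidney, was lower in every mutant than in any control. Its lowest, median and highest intensities were 179.0, 352.8 and 425.6 in mutants, against 524.4, 604.5 and 674.5 in controls. The means were 325.3 ± 89.9 in mutants and 596.2 ± 52.2 in controls (SD, n = 6 each), which is 45.4% lower in mutants. The log2 difference was -0.78 (SE 0.14), between -0.85 and -0.65 when any 1 mouse was left out, and the smallest difference came without mutant 6. Here the mutants were the more variable group, with a coefficient of variation of 27.6% in mutants and 8.75% in controls. Of 6 adipocyte markers, Adipoq, Plin1, Cfd and Retn were at or under the noise limit in all 12 mice, and Lep was above it in 1 control alone. Cidec, a lipid droplet protein that enterocytes also make, was bright and fell (2390 ± 430 in mutants and 3915 ± 528 in controls, SD, n = 6 each, limma adjusted p = 0.00185).

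Aqp1, the water channel of red blood cells and of endothelium outside the brain, was the member that was higher in mutants. Its lowest, median and highest intensities were 1262, 1602 and 2809 in mutants, against 658.0, 867.0 and 953.4 in controls. The lowest mutant, mutant 4, lay above the highest control, control 4, and mutant 3 stood far above the other mutants. The means were 1755 ± 543 in mutants and 828.1 ± 130.7 in controls (SD, n = 6 each), or 2.12-fold. The log2 difference was 0.99 (SE 0.15) and 0.85 without mutant 3.

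The markers of endothelial and erythroid cells, which are known to carry Aqp1, fell or did not pass. Of 9 endothelial genes, 3 fell and none rose, where 4.48% of all rows fell and 4.71% rose: Robo4, a guidance receptor of vessels (log2 difference -0.48, SE 0.08, limma adjusted p = 0.00205), Emcn, an endothelial sialomucin (-0.32, SE 0.08, adjusted p = 0.0174), and Tek, the angiopoietin receptor (-0.35, SE 0.10, adjusted p = 0.0357). Pecam1, Cdh5, Esam, Tie1 and Plvap did not pass, and Kdr was at or under the noise limit in all mice. The summed intensity of the 9 ranged from 6063 to 7747 in mutants and from 6317 to 10192 in controls. Of 8 erythroid genes, 2 fell and none rose (again beside 4.48% and 4.71% of all rows), the haemoglobin genes Hba-a1 (-0.62, SE 0.14, adjusted p = 0.0118) and Hbb-b2 (-1.40, SE 0.29, adjusted p = 0.00733), while Epb42 and Rhag were at or under the noise limit in all mice. Their summed intensity ranged from 10722 to 20364 in mutants and from 20757 to 32299 in controls. Among smooth muscle markers, the 1 that passed went the other way. Of 6 such genes, 1 rose and none fell (beside 4.71% and 4.48% of all rows), Cnn1, the dimmest of them (0.31, SE 0.08, limma adjusted p = 0.0356). Acta2, Myh11, Tagln, Des and Actg2 did not pass (limma adjusted p = 0.0636 to 0.796). The median log2 difference of the 6 was 0.32. Their summed intensity ranged from 32577 to 45413 in mutants and from 24185 to 37689 in controls, with overlap. Which cells of the tissue carried the Aqp1 signal was not tested.

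**Figure D2:**
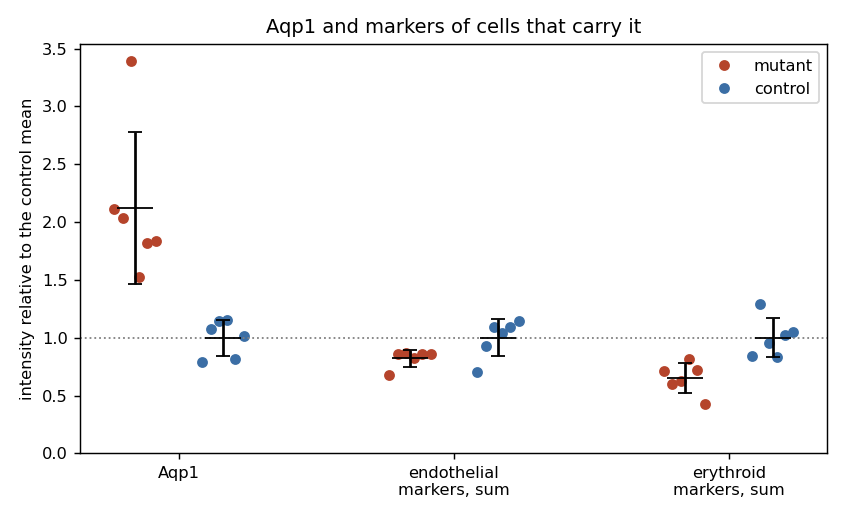
Intensity relative to the control mean (linear axis) for Aqp1, for the sum of 9 endothelial markers and for the sum of 8 erythroid markers. Points are mice, mutants left of controls, and black bars give mean and SD (n = 6 each). Aqp1 lies above 1 in every mutant, while both marker sums have mutant means below 1.

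Aqp4, the channel of astrocytes, gastric parietal cells and skeletal muscle, was somewhat lower in mutants with overlapping groups. Its lowest, median and highest intensities were 307.1, 403.5 and 473.6 in mutants, against 316.8, 606.2 and 730.1 in controls. All 6 mutants were below the control mean, but control 6 and control 3 lay within the mutant range. The means were 401.5 ± 59.8 in mutants and 557.2 ± 152.2 in controls (SD, n = 6 each), with a log2 difference of -0.38 (SE 0.15), and of -0.51 without control 6. The parietal cell markers Atp4a and Atp4b were at or under the noise limit in all mice, though within that range Atp4a passed as higher in mutants (15.4 ± 6.5 in mutants and -0.017 ± 9.011 in controls, SD, n = 6 each, limma adjusted p = 0.0439). Of the enteric glial genes, Gfap was at or under it in all mice and the dim S100b fell (0.42 ± 5.28 in mutants and 28.0 ± 11.1 in controls, SD, n = 6 each, limma adjusted p = 0.00187).

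Aqp3, a glycerol and water channel of the basolateral membrane of many epithelia, varied between mice far more than between groups. Its intensities in mutants 1 to 6 were 52.9, 280.1, 69.4, 593.6, 66.4 and 68.5, against 80.0, 105.4, 104.4, 256.7, 162.2 and 58.0 in controls 1 to 6. Mutants 2 and 4 were high and the other 4 mutants low, and control 4 and control 5 were the highest controls. The highest value was 11.2 times the lowest in mutants and 4.43 times in controls. The means were 188.5 ± 216.5 in mutants and 127.8 ± 72.1 in controls (SD, n = 6 each). The log2 difference was 0.13 (SE 0.38), and -0.21 without mutant 4. In its gene neighbour Aqp7 the highest mutants were mutant 4 and mutant 5, at 425.6 and 380.6, and all 6 mutants were below the controls.

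Aqp11, the intracellular member, showed the same level in both groups within the spread of the mice. Its lowest, median and highest intensities were 1373, 1713 and 2152 in mutants, against 1406, 1614 and 2266 in controls. The means were 1732 ± 274 in mutants and 1747 ± 350 in controls (SD, n = 6 each), with a log2 difference of 0.00 (SE 0.12).

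The remaining members were read near the noise limit. Aqp5, the channel of salivary, tear and Brunner glands, ranged from 9.3 to 27.6 in mutants and from 10.5 to 25.7 in controls, so that no mouse was above 27.8. Muc6, a mucin of Brunner glands, was at or under the limit in all mice as well. Tff2, a peptide secreted with it, was high in mutant 1 (567.3), mutant 5 (215.2), control 4 (1347) and control 5 (164.0), mice in which Aqp5 was 21.0, 19.0, 25.2 and 10.5. Aqp9, a glycerol channel of liver and of leukocytes, ranged from 13.8 to 35.4 in mutants and from 5.7 to 28.7 in controls, with 3 mutants and 1 control above the limit. Of 6 neutrophil markers, 4 rose, where 4.71% of all rows rose. The calprotectin genes S100a8 and S100a9 made up most of the signal (5650 ± 2325 and 1428 ± 642 in mutants, against 130.6 ± 41.8 and 31.4 ± 13.7 in controls, SD, n = 6 each, limma adjusted p = 2.88e-07 and 2.28e-06). The granule genes Camp and Ltf rose 2.95-fold and 3.33-fold (adjusted p = 0.00329 and 0.000142), Ngp did not pass (0.298), and Mpo was at or under the limit in all mice. The summed intensity of the 6 was 3002 to 10550 in mutants and 177.0 to 372.9 in controls. Which cells carried the S100a8 and S100a9 signal was not tested. Of 6 hepatocyte markers, Alb, Fgb and Cyp2e1 were at or under the limit in all mice. The other three were above it in every mouse: Ttr, a thyroid hormone carrier, and Serpina1a, a protease inhibitor, fell (3284 ± 1488 and 203.4 ± 63.6 in mutants, against 7517 ± 1698 and 697.9 ± 200.3 in controls, SD, n = 6 each, limma adjusted p = 0.00911 and 0.000209), and the apolipoprotein Apoa2 did not pass (adjusted p = 0.767). Levels near the limit cannot show whether these 2 channels differed between the groups.

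Of the 4 further family rows, Aqp2, the vasopressin-regulated channel of the kidney, Aqp6, an intracellular channel of the kidney, and Mip, the channel of lens fibres, were at or under the noise limit in all mice. Aqp12, a channel of pancreatic acinar cells, ranged from -14.0 to 12.8 in mutants, against 59.8 in control 4, the only mouse above the limit, and -16.4 to -0.4 in the other controls. Control 4 was also the mouse with the highest sum of acinar markers.

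**Figure D3:**
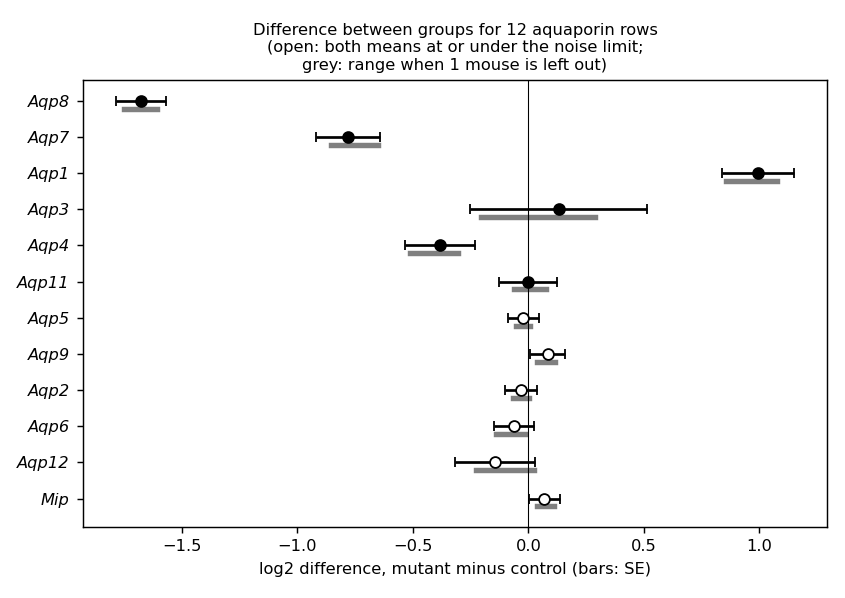
Log2 difference, mutant minus control, with SE for the 12 aquaporin rows (n = 6 mice in each group), and in grey the range over the 12 fits that left out 1 mouse. Open circles are rows with both means at or under the noise limit. Aqp8 at -1.68, Aqp7 at -0.78 and Aqp1 at 0.99 stand clear of 0, and the grey bar of Aqp4 also stays below it. Among the rows above the noise limit, the grey bars of Aqp3 and Aqp11 cross 0.

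Single mice took like places in several members. Mutant 4 had the highest mutant value of Aqp8, Aqp7, Aqp4 and Aqp3 and the lowest of Aqp1, which for Aqp8, Aqp7 and Aqp1 placed it closest of the mutants to the controls. Mutant 3 had the lowest mutant value of Aqp8, Aqp4 and Aqp11 and the highest of Aqp1. Control 6 had the lowest control value of Aqp8, Aqp4, Aqp3 and Aqp11.

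The rows whose profile over the 12 mice came nearest to each of the 3 non-overlapping members were sought by the root mean square difference of log2 values, each row centred on its own mean, among 8776 rows above the noise limit in all mice. Nearest to Aqp8 were Igfals, the acid-labile subunit of the IGF complex (0.30), Rdh5, a retinol dehydrogenase (0.31), the receptor Ephb2 (0.37) and Serpina1c, a protease inhibitor (0.38). Nearest to Aqp7 were Eps8, an actin regulator of microvilli (0.17), Tmem51 and the apolipoprotein Apoc4 (both 0.21), and Bdh1, a ketone body dehydrogenase (0.22). Nearest to Aqp1 were the row LOC100044122 and Ppp1r1b, a phosphatase inhibitor (both 0.19), B930041F14Rik, today's Fndc10 (0.20), and Slc35e3 (0.21). These distances describe likeness of profile, most of which is the difference between the groups.

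For Aqp3 the same measure was applied after its values had been seen. Nearest were Aldh1a1, a retinaldehyde dehydrogenase (0.36), Sys1, a Golgi protein (0.43), Scin, an actin-severing protein (0.43), and Aldh1a7, a relative of Aldh1a1 (0.44). Aldh1a1 was 1104 in mutant 2, 1149 in mutant 4, 377.6 to 544.5 in the remaining mutants and 372.5 to 777.9 in controls. Scin was 4128 in mutant 2, 5031 in mutant 4, 736.7 to 1473 in the remaining mutants and 1863 to 4817 in controls. The same 2 mutants were the highest mutants for Aqp3, Aldh1a1 and Scin, a likeness that follows from picking rows near Aqp3.

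**Figure D4:**
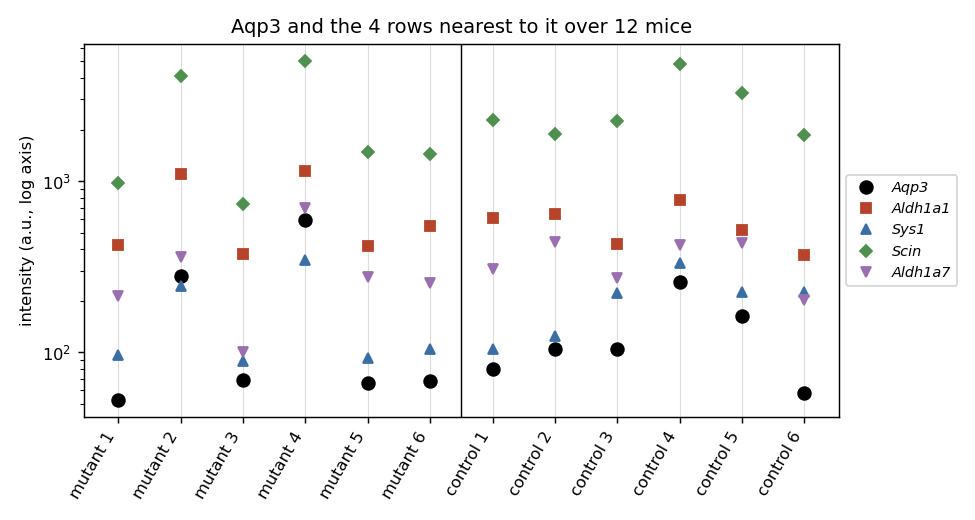
Intensity (arbitrary units, log axis) of Aqp3 and of the 4 rows nearest to it in each of the 12 mice, mutants left of the black line and controls right of it. Mutants 2 and 4 have the highest mutant values in all 5 rows.

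Genes that move salt and sugar across the epithelium, which set the direction of water flow, were counted from a list taken by function. Of 28 with a row, 6 rose and 2 fell, where 4.71% of all rows rose and 4.48% fell (median log2 difference -0.029 against -0.0068 over all rows). Cldn15, a tight junction protein that forms a pore for sodium and water, rose (1890 ± 279 in mutants and 742.1 ± 170.0 in controls, log2 difference 1.29, SE 0.14, limma adjusted p = 7.75e-05). Cftr, the chloride channel of crypt cells, was 1060 ± 188 in mutants and 536.2 ± 147.9 in controls (0.91, SE 0.15, adjusted p = 0.00164). Guca2a, the precursor of guanylin, which opens Cftr through cyclic GMP, rose by 1.01 (SE 0.12, adjusted p = 0.000225). Slc26a6, an anion exchanger of the brush border, rose by 0.68 (SE 0.15, adjusted p = 0.0122), and Vipr1, a receptor for vasoactive intestinal peptide, by 0.55 (SE 0.12, adjusted p = 0.0125). Vipr1 was dim (84.7 ± 29.1 in mutants and 35.2 ± 15.5 in controls, SD, n = 6 each), and its log2 difference was 1.34 without background correction. Slc12a2, the basolateral cotransporter that loads chloride, rose by 0.48 (SE 0.12, adjusted p = 0.0276), a call that ended in 6 of the 12 fits without 1 mouse (controls 3, 4 and 5 and mutants 1, 3 and 5, with an adjusted p of 0.0534 to 0.0612) and without control 4 and mutant 1 (0.0962).

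The list members that fell were Scnn1a and Pdzk1. Scnn1a, the alpha subunit of the epithelial sodium channel, was 879.2 ± 165.0 in mutants and 1476 ± 327 in controls (SD, n = 6 each, log2 difference -0.70, SE 0.14, limma adjusted p = 0.00775). Its partner subunits Scnn1b and Scnn1g were at or under the noise limit in all mice. Pdzk1, a scaffold of brush border transporters, fell by 0.40 (SE 0.09, adjusted p = 0.013), a call that ended without control 4 and mutant 1 (0.0506). The sodium and glucose cotransporter Slc5a1, the water-permeable claudin Cldn2 and the uroguanylin gene Guca2b did not pass (limma adjusted p = 0.301, 0.691 and 0.971).

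Genes of glycerol and triglyceride handling, the metabolic setting of Aqp3, Aqp7 and Aqp9, split likewise. Of 21 with a row, 1 rose and 3 fell, beside 4.71% and 4.48% of all rows (median log2 difference -0.070). Abhd5, which activates triglyceride breakdown, was 251.2 ± 124.8 in mutants and 837.7 ± 160.3 in controls (SD, n = 6 each, log2 difference -1.55, SE 0.20, limma adjusted p = 0.000308). Plin2, a lipid droplet coat protein read by the row Adfp, fell by 0.70 (SE 0.13, adjusted p = 0.00514). Mogat2, which rebuilds triglycerides in enterocytes, fell by 0.35 (SE 0.09, adjusted p = 0.0214), a call that ended without control 3 (0.0518), without control 4 and mutant 1 (0.0662) and with the replicate number as a block (0.0518). Lpl, lipoprotein lipase of stromal and fat cells, rose (4093 ± 1066 in mutants and 1915 ± 751 in controls, log2 difference 1.12, SE 0.24, adjusted p = 0.0111). The glycerol kinase row Gyk was above the noise limit in no mutant and 1 control, and Gpd1 and Dgat1 did not pass (adjusted p = 0.49 and 0.493).

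Of 14 genes of the response to osmotic stress and cell volume, 1 rose and none fell (median log2 difference -0.019), a share near the 9.19% of all rows that passed in either direction. Stk39, the kinase that switches on cation and chloride cotransporters such as Slc12a2, was 888.6 ± 80.0 in mutants and 584.4 ± 47.9 in controls (SD, n = 6 each, log2 difference 0.55, SE 0.07, limma adjusted p = 0.000209), and all 6 mutants were above all controls. Nfat5, the transcription factor of the tonicity response, and Akr1b3 and Slc6a6, known as its targets, did not pass (adjusted p = 0.379, 0.664 and 0.609), and Oxsr1, the kinase most like Stk39, did not pass (0.956).

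**Figure D5:**
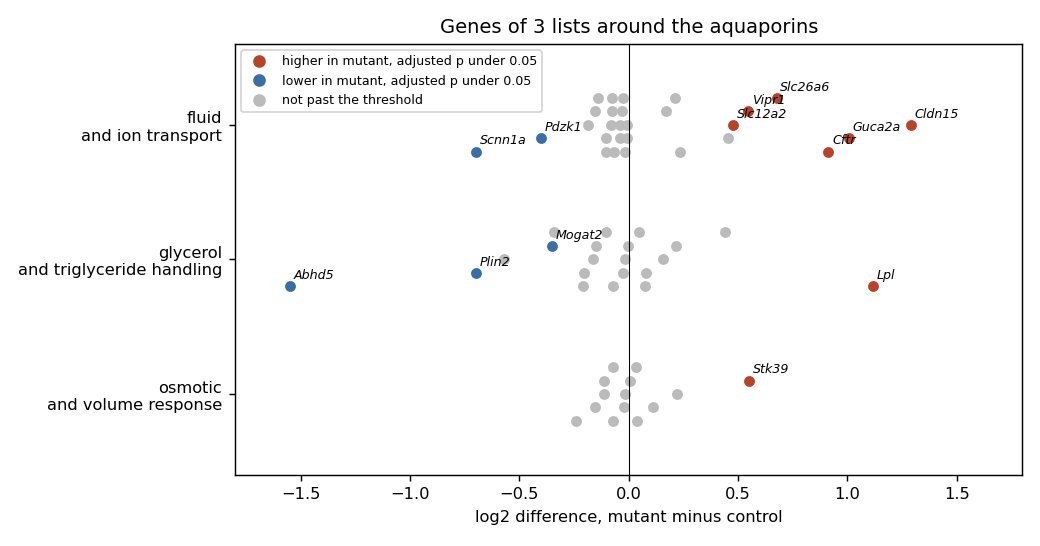
Log2 difference, mutant minus control, for every gene with a row in the lists of fluid and ion transport (28 genes), glycerol and triglyceride handling (21 genes) and osmotic and volume response (14 genes). Each point is a gene, its height within a list is arbitrary, and named points passed the threshold, from Abhd5 at -1.55 to Cldn15 at 1.29.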

How the data were processed

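Biotin-labelled cRNA from the small intestine of 6 mutant and 6 control mice was read on a 1-colour Illumina array. Group and replicate number came from the sample titles, and the labels call the samples biological replicates. The deposited intensity values, 1 for each of 18090 gene symbols and mouse, were on a linear scale. The tools GenomeStudio and Partek are named per the submitters' processing notes, without roles. The deposited values show background subtraction (22.5% below 0) and a common distribution (column medians 41.8 to 43.4). Array version and the handling of several probes per gene are unknown here. Another table, with 24 per-sample columns under headings that match no label, was not used, so no detection p-value entered.

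The deposited intensities went through normexp (offset 50), quantile normalization and log2, and were fitted with limma 3.58.1 in R 4.3.3 (lmFit and eBayes with a group term alone, two-sided tests, Benjamini-Hochberg over all rows). The fit was checked on simulated data. The number of mice limits the precision. Rows were named through the gene table of GRCm38.p6 (14092 by symbol, 3023 by a single synonym, 975 unnamed), with the brightest row of a gene used for lists. Rows beside the aquaporins follow a rule: list members past the threshold, up to 6 by size, Ptpn11, and the 4 nearest profiles. Slc12a2 and Pdzk1, outside the first 6, list genes that did not pass and the profiles near Aqp3 were chosen after their values were seen. Members and lists were chosen with earlier results of these data known. Whether replicate numbers pair the mice is not stated in the labels. Deviations of same-numbered mice correlated at -0.109 to 0.266, and mutants 3 and 6 correlated best with the control of their own number. These values cannot settle the pairing, so the main fit had no block.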

Additional observations from a re-analysis of the deposited data

Results flagged for a closer look

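In each group of 6 mice, values of the 12 aquaporin rows and of the 13 list genes past the threshold were checked for a mouse far from the others (gap to the nearest mouse over the range of the group above 0.625). Of 50 such sets 3 held one, and chance gives about 1 in 20. Aqp1 read 2809 in mutant 3, where the other mutants read 1262 to 1748. Aqp12 read 59.8 in control 4, where the other controls read -16.4 to -0.4. Aqp6 read -19.3 in control 1, where the other controls read -1.4 to 9.0, all within the noise limit.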

How the results depend on the processing

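The counts of rows past the threshold kept within 1.5 times their value under every alternative run (no background correction, offset 16, no quantile normalization, dim rows left out, replicate block, each mouse left out, control 4 and mutant 1 left out, trend and robust variances, array weights). With 1 mouse left out, 3 to 4 aquaporins passed (4 without control 6, a count that only describes rows chosen on these values), 1250 to 1693 of all rows, 7 to 9 fluid and ion transport genes, 3 to 6 glycerol and triglyceride genes and 1 osmotic response gene. With the replicate block the counts were 3, 1702, 9, 4 and 1, and Ptpn11 passed (limma adjusted p = 0.044), as it did without control 3 (0.0428). The glycerol and triglyceride genes, 1 higher and 3 lower in the main fit, were 2 higher and 2 lower with the block. They were 2 higher and 3 lower with dim rows left out and with trend and robust variances. The calls of Slc12a2, Pdzk1 and Mogat2 ended in the fits named beside them, and that of Slc12a2 also without background correction (0.0655). Of 234 alternative differences of aquaporin rows, 230 moved by less than 1 SD between mice. The other 4 were dim rows without background correction, Aqp2 at -0.22, Aqp6 at -0.57, Aqp9 at 0.44 and Mip at 0.53, none past the threshold. The cause was not tested. Signal near background limits what Aqp5, Aqp9 and the dim rows can show.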
